A study of Mus musculus with 4 samples.

Results

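The Rab genes encode small GTPases that mark the membranes of the cell. The family was taken as every protein-coding gene of the deposited table whose symbol is Rab followed by a number and at most 1 letter from a to d, which gave 59 of 29300 genes. Symbols such as Rab3gap1 or Rab11fip3, which name regulators and partners of Rab proteins, were left out of the family and are described at the end. The measurement was poly(A) RNA sequencing of the hippocampus in a mouse model of perioperative neurocognitive disorder (PND). All 4 animals were male C57BL/6 wild-type mice of 7 to 8 months, all received 2.1% isoflurane and 30 mg/kg tramadol, and all were sampled on day 1. The 2 control mice had anesthesia and analgesia without an operation, and the 2 PND mice had in addition an open tibial fracture that was fixed with an intramedullary pin. The comparison asked which Rab transcripts differ after the fracture, and anesthesia and analgesia are shared by both groups, so their own effects were not measured here.

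A Rab protein cycles between a GTP-bound form, which sits on a membrane and recruits effectors, and a GDP-bound form, which is drawn off the membrane by GDP dissociation inhibitors. Guanine nucleotide exchange factors switch a Rab on and GTPase-activating proteins switch it off. In neurons the family is known for moving synaptic vesicles, for sorting receptors through early and recycling endosomes, and for carrying cargo to lysosomes.

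The hippocampal libraries held between 15763432 and 18573386 counts, and the family took 87459 to 97386 of them. All 6 hippocampal markers were detected, with a summed level of 1113 and 1004 CPM (counts scaled to the library total after TMM normalization) in control mice and 1122 and 1003 CPM in PND mice. Of these 6, 2 were higher and 2 lower in PND mice, and the sum joins genes that differ in direction, such as Fibcd1, at 234 and 224 CPM against 148 and 145 CPM, and Zbtb20, at 321 and 279 CPM against 423 and 393 CPM. The 6 listed markers of choroid plexus differed widely between animals, at a summed 128 and 5435 CPM in control mice and 2037 and 3452 CPM in PND mice. None of these 6 was at 0 and none passed the test. The 6 oligodendrocyte markers, of which none was at 0 and none passed, summed to 6183 and 5329 CPM in control mice and 6084 and 3927 CPM in PND mice. The 6 neuronal markers, with none at 0, 1 higher and 1 lower in PND mice, summed to 4941 and 4795 CPM in control mice and 5225 and 5024 CPM in PND mice. The 6 astrocyte markers, with none at 0, 2 higher and 2 lower, summed to 2340 and 2407 CPM in control mice and 2149 and 2072 CPM in PND mice. Both PND mice thus lay above both control mice in the neuronal sum and below both in the astrocyte sum. The 6 microglial markers summed to 240 and 227 CPM in control mice and 228 and 236 CPM in PND mice, with 1 higher and 0 lower. The 6 endothelial markers summed to 197 and 204 CPM in control mice and 197 and 267 CPM in PND mice, with 1 higher and 0 lower. The part of cell composition in the results was not tested, and in bulk tissue fewer cells of a type and less RNA per cell cannot be told apart.

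The family moved in both directions. Of 54 members with enough reads for the test, 15 were higher in PND mice, 12 were lower and 27 did not pass. A member passed when its adjusted p-value in edgeR's quasi-likelihood test, corrected over all 17144 genes tested, was under 0.05. The members that passed higher were 27.8% of those tested, against 13.1% of all genes, and the members that passed lower were 22.2%, against 12.8% of all genes. Together the 27 were 50% of the members tested, against 26.0% of all genes in either direction. Rab genes were expressed at a median of 44.8 CPM, against 17.6 CPM for all genes tested, and their fold changes had a median standard error of 0.09 on the log2 scale, against 0.14 for all genes. A higher level and a smaller error accompany the larger share of calls, and their part in it was not tested. The number of lower members was 7 of 55 without control mouse 1, where 9.62% of all genes passed as lower, and 6 of 55 without PND mouse 2, where 7.54% did. The number of higher members stayed between 11 and 14 when any 1 mouse was left out, and 6.72% to 11.3% of all genes passed as higher in these fits.

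Rises and falls nearly cancelled over the family. The median log2 fold change of the 54 members was 0.04, from −0.83 to 1.18, against 0.01 for all genes tested, with 29 members above 0 and 25 below. Without control mouse 2 the median was −0.05, and without PND mouse 2 it was −0.04. The summed level of all 59 members was 5488 and 5328 CPM in control mice and 5484 and 5432 CPM in PND mice, so the groups overlapped. In 23 members both PND mice lay above both control mice and in 21 both lay below, and these 44 were 81.5% of the members tested, against 65.5% of all genes. By direction the same pattern was seen in 33.2% of all genes for PND above control and in 32.2% for PND below control.

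Few of the members that passed also changed by the fold that the study set for differentially expressed genes (DEGs), at least 1.5 or at most 0.67, and a gene is called a DEG here only where it met both. The higher DEGs were Rab30, Rab6a, Rab5a, Rab33b and Rab39b, in a background of 6.75% of all genes. The lower DEG was Rab24, in a background of 2.25%. Among members that passed, the higher ones had a median log2 fold change of 0.50 and the lower ones of −0.42. In edgeR the number of lower DEGs was 0 without control mouse 2 or PND mouse 2, where 1 member reached the fold at an unadjusted p-value under 0.05, and it was 2 without control mouse 1 or PND mouse 1.

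**Figure D1:**
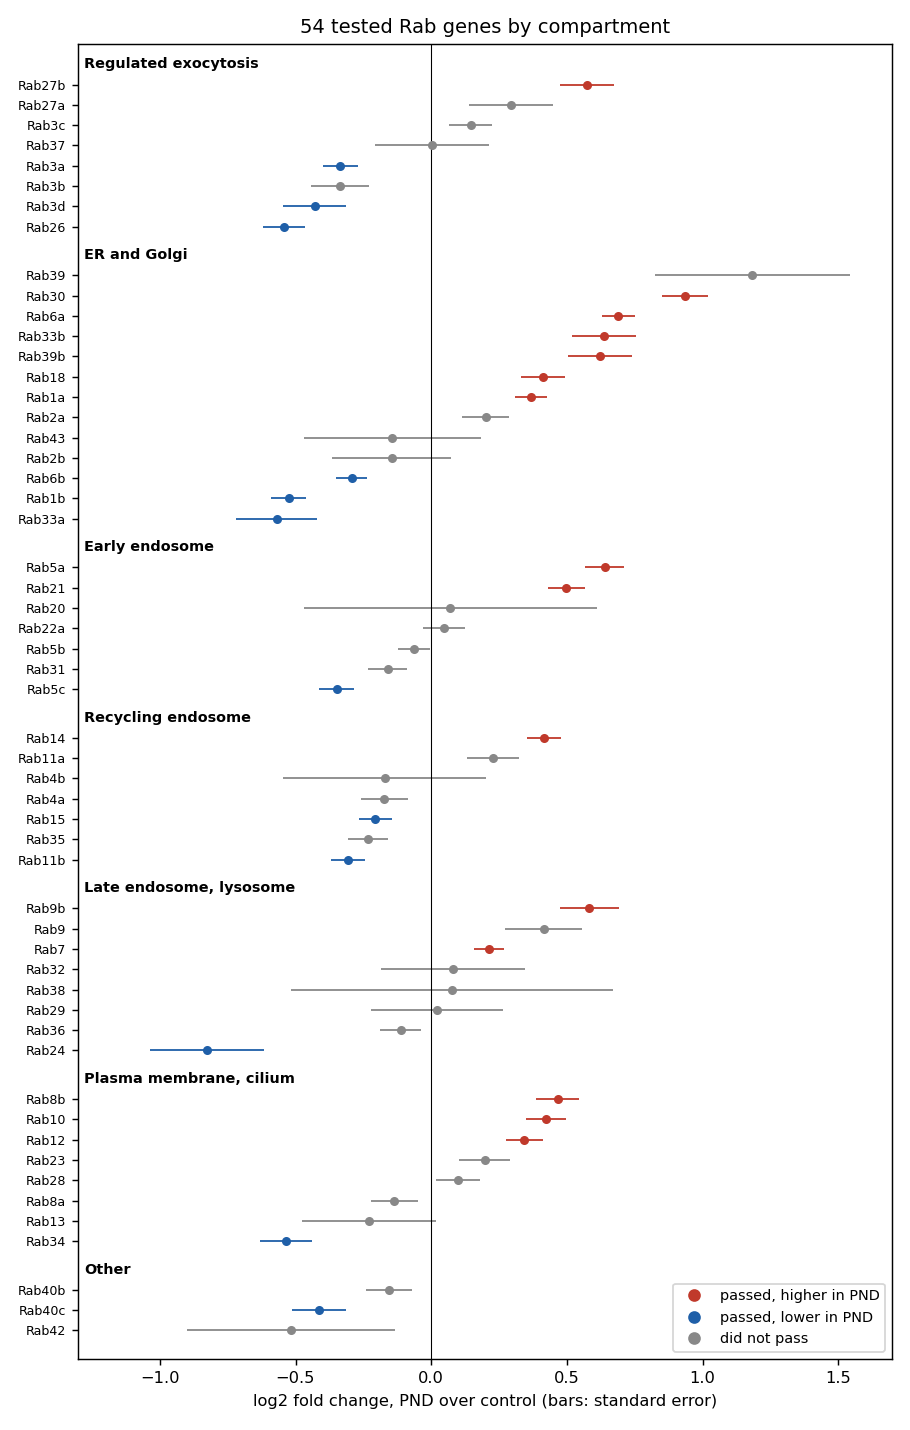
Log2 fold change of PND over control mice for the 54 tested Rab genes (x axis, points with bars of 1 standard error), grouped by the compartment where the protein is best known to act. Red points passed as higher (15 genes) and blue points as lower (12 genes), and every compartment with more than 3 tested genes has points on both sides of 0.

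Some close paralogues moved in opposite directions. In the Rab1, Rab5, Rab6 and Rab33 sets, 1 member passed as higher and another as lower. Of 13 sets with at least 2 tested members, 8 had a member above 0 and a member below 0, the sets of Rab1, Rab2, Rab3, Rab5, Rab6, Rab8, Rab11 and Rab33. Among sets with exactly 2 tested genes, 6 had them on opposite sides of 0 and 5 on the same side (Rab4, Rab9, Rab27, Rab39 and Rab40). Over the family, 29 members lay above 0 and 25 below. The paralogues encode nearly the same protein in their core, so the sequences of 4 pairs are given here to show how alike they are and where they differ. Each stretch covers 60 bases of coding sequence from the first codon of the phosphate-binding loop, the part of a Rab that holds the nucleotide, and capitals mark the bases that differ between the 2 members of a pair. The sequences are those of GENCODE release M21 on GRCm38 (mm10).
Rab6a: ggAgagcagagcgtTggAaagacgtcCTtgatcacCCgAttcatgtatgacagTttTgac
Rab6b: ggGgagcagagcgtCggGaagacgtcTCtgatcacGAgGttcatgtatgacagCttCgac
Rab1a: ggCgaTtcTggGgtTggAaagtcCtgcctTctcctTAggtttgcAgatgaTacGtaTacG
Rab1b: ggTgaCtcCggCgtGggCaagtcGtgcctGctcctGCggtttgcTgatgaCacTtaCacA
Rab5a: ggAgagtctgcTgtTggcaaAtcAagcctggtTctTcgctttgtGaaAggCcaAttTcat
Rab5c: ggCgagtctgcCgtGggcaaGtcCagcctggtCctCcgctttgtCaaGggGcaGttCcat
Rab11a: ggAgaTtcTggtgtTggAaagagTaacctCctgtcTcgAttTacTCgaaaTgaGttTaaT
Rab11b: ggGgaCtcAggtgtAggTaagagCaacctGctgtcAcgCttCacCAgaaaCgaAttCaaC

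All 4 pairs encode the same 20 residues over this stretch. Rab6a and Rab6b differ at 10 of 60 bases, Rab1a and Rab1b at 15, Rab5a and Rab5c at 12 and Rab11a and Rab11b at 16. Of these differences 8, 14, 12 and 15, in the same order, fall on the third position of a codon, where a change often leaves the residue as it is. In each of these 4 pairs the member with the higher log2 fold change carries the version with less GC. Of the 60 bases, 29 are G or C in Rab6a against 34 in Rab6b, 30 in Rab1a against 36 in Rab1b, 28 in Rab5a against 38 in Rab5c, and 24 in Rab11a against 31 in Rab11b. The Rab33 pair, which is not printed, differs from these. Its whole coding sequence holds 54.3% GC in Rab33b, which passed as higher, and 53.6% in Rab33a, which passed as lower.

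Rab6 proteins direct traffic at the Golgi, with Rab6a in most cells and Rab6b mainly in neurons. Rab6a lies on the plus strand at chr7:100607410-100641268 and Rab6b on the plus strand at chr9:103111787-103185276. On a scale that also divides by the exon length of the gene (RPKM), Rab6a stood at 75.04 and 71.2 RPKM in control mice and 115 and 121 RPKM in PND mice. Rab6b stood at 215 and 208 RPKM in control mice and 176 and 169 RPKM in PND mice. Neither gene overlapped between the groups. The log2 fold change was 0.69 ± 0.06 (SE) for Rab6a, with an adjusted p-value of 0.00428 in edgeR, and −0.29 ± 0.06 for Rab6b, with an adjusted p-value of 0.0143. The share of Rab6a in the summed RPKM of the pair was 25.9% and 25.5% in control mice and 39.5% and 41.6% in PND mice. The sum of the pair, 290 and 280 RPKM in control mice and 291 and 290 RPKM in PND mice, overlapped between the groups. Exons of Rab6a overlap those of Mrpl48 on the other strand, and 17.5% of the 75 nt windows of its transcripts also occur in another gene.

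Rab1 proteins act between the endoplasmic reticulum and the Golgi. Rab1a (chr11:20201432-20226856, plus strand) was measured at 39.7 and 38.2 RPKM in control mice and 50.3 RPKM in each of the PND mice, a log2 fold change of 0.37 ± 0.06 (SE). Rab1b (chr19:5099207-5106996, minus strand) was measured at 80.8 and 87.6 RPKM in control mice and 58.2 and 58.7 RPKM in PND mice, a log2 fold change of −0.53 ± 0.07. In edgeR both passed, with adjusted p-values of 0.00766 and 0.00498. The share of Rab1a in the pair was 32.9% and 30.4% in control mice and 46.3% and 46.1% in PND mice, and Rab1b had the higher RPKM in every mouse. In CPM, which is not divided by length, Rab1a was the higher of the pair in both PND mice. It stood there at 191 and 191 CPM, against 132 and 133 CPM for Rab1b.

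Rab5 proteins control the fusion of early endosomes. Rab5a (chr17:53479234-53507671, plus strand) was at 12.4 and 11.9 RPKM in control mice and 19.6 and 18.4 RPKM in PND mice, and its log2 fold change was 0.64 ± 0.07 (SE) with an adjusted p-value of 0.00446 in edgeR. Rab5c (chr11:100715009-100738215, minus strand) was at 74.0 and 77.4 RPKM in control mice and 60.8 and 58.1 RPKM in PND mice, and its log2 fold change was −0.35 ± 0.06 with an adjusted p-value of 0.0110 in edgeR. Between them lay Rab5b, which did not pass, at 37.0 and 37.9 RPKM in control mice and 36.4 and 35.4 RPKM in PND mice. Rab5a made up 10.1% and 9.38% of the summed RPKM of the set in control mice and 16.8% and 16.4% in PND mice, and the share of Rab5c was 59.9% and 60.8% against 52.1% and 51.9%.

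The fourth set with 1 member that passed as higher and another as lower was Rab33, which was added to the sets described after its values were seen. Rab33a and Rab33b are Golgi Rabs, and Rab33b binds the autophagy protein Atg16l1. Rab33b rose from 4.12 and 4.05 RPKM in control mice to 6.75 and 5.96 RPKM in PND mice, a log2 fold change of 0.64 ± 0.12 (SE), and Rab33a fell from 13.8 and 14.8 RPKM to 10.7 and 8.65 RPKM, a log2 fold change of −0.57 ± 0.15. The share of Rab33b in the pair was 23.0% and 21.5% in control mice and 38.8% and 40.8% in PND mice. The call on Rab33a (adjusted p-value of 0.0358 in edgeR) was lost without control mouse 1 (log2 fold change −0.63), control mouse 2 (−0.52) or PND mouse 2 (−0.42), and without the filter on low counts (−0.58). Of the 75 nt windows of Rab33b, 19.7% are shared with another gene.

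**Figure D2:**
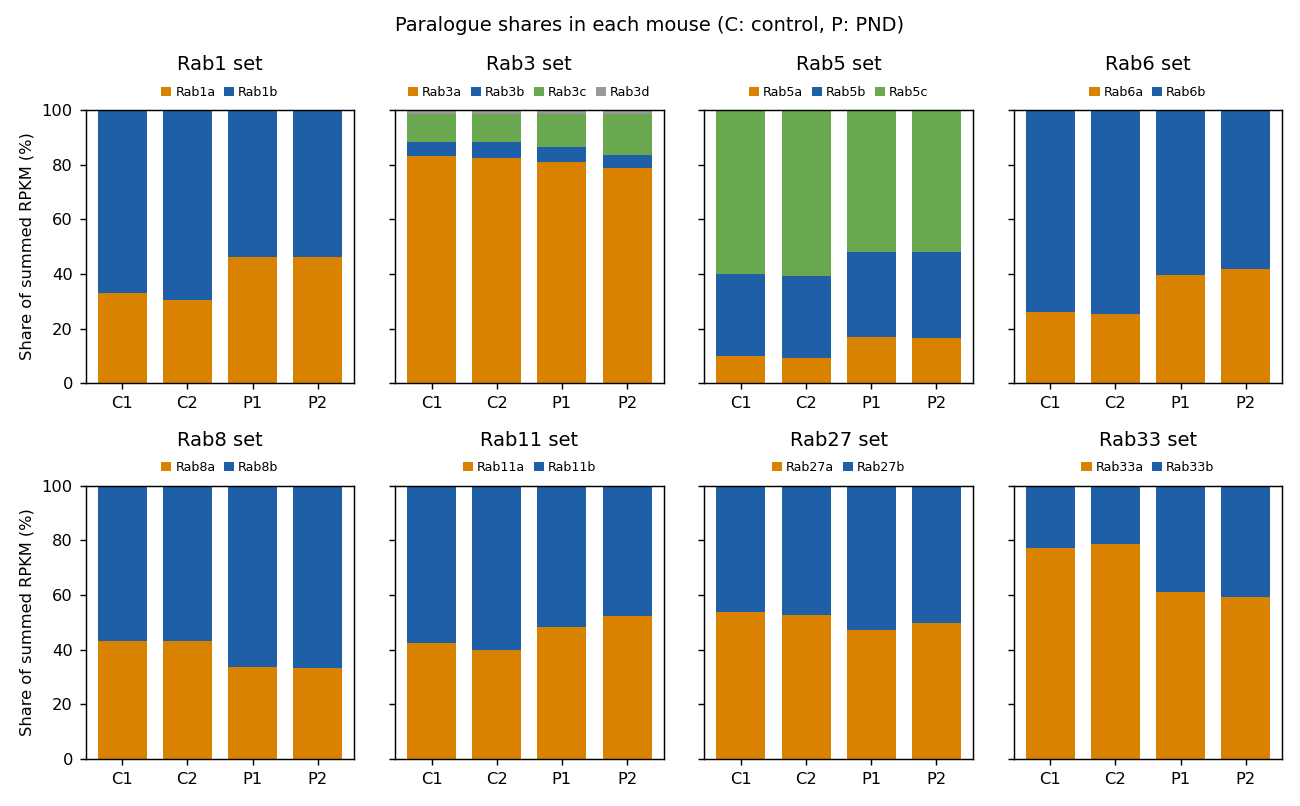
Share of each paralogue in the summed RPKM of its set (y axis, percent) in control mice C1 and C2 and PND mice P1 and P2, for 8 sets. The boundary between the colours moves the same way in both PND mice in the Rab1, Rab5, Rab6, Rab8, Rab11 and Rab33 sets. Rab6a, for example, goes from 25.9% and 25.5% in control mice to 39.5% and 41.6% in PND mice. The share of Rab27a also falls in each PND mouse, from 53.9% and 52.5% to 47.1% and 49.7%. That of Rab3a falls from 83.2% and 82.4% to 80.8% and 78.6%.

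The shares are given as a description, with no test, since with 2 mice in each group the smallest two-sided p-value of the exact permutation test is 0.333. In the Rab8 pair, which carries cargo to the plasma membrane and the cilium, Rab8b held 56.8% and 56.9% in control mice and 66.5% and 66.8% in PND mice. Its own level was 47.2 and 48.7 CPM in control mice and 63.5 and 69.0 CPM in PND mice (log2 fold change 0.47), and Rab8a, at 35.5 and 36.4 CPM against 31.7 and 33.8 CPM, did not pass. In the Rab11 pair, the Rabs of the recycling endosome, Rab11b passed as lower at 164 and 159 CPM in control mice against 135 and 127 CPM in PND mice. Its partner Rab11a had a log2 fold change of 0.23 and did not pass, at 59.3 and 51.8 CPM in control mice and 61.8 and 68.3 CPM in PND mice. The share of Rab11a was 42.6% and 40.0% in control mice and 48.4% and 52.5% in PND mice. The log2 fold change of Rab11b was −0.31, and its call was lost without control mouse 1 (−0.29) or PND mouse 2 (−0.26). In addition 11.9% of its windows are shared with other genes, a Rab11b pseudogene among them.

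Other sets were dominated by 1 member or had both members on the same side of 0. Rab2a, a Rab of the Golgi, made up 98.8% to 99.2% of its pair and did not pass, at 228 and 200 CPM in control mice and 260 and 233 CPM in PND mice. Its partner Rab2b was at 4.70 and 4.92 CPM against 3.89 and 4.80 CPM, and the groups overlapped. Rab4a, which returns cargo quickly from early endosomes, made up 97.6% to 98.2% of its pair at 46.2 and 45.5 CPM against 42.8 and 38.5 CPM. Rab4b was at 1.28 and 0.930 CPM against 1.00 and 0.948 CPM, and neither Rab4 gene passed. Rab2b shares 54.3% of its windows with Gm43766 and Tox4, and Rab4b shares 52.5% with Gm21983 and Mir3101. The part of this sharing in the low levels of Rab2b and Rab4b, and so in the shares of these pairs, was not tested. Rab27b and Rab9b passed as higher, and their partners Rab27a and Rab9, with log2 fold changes of 0.30 and 0.42, lay on the same side of 0 without passing. Rab27a was at 11.9 and 9.85 CPM in control mice and 12.7 and 13.9 CPM in PND mice, and Rab9 was at 19.4 and 15.4 CPM against 24.3 and 22.2 CPM. In each of these partners the lowest PND mouse was above the highest control mouse.

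Regulated exocytosis, the release of synaptic vesicles and secretory granules, had 8 tested members, of which 3 passed as lower and 1 as higher. In all genes tested 12.8% passed as lower and 13.1% as higher, and with 3 to 13 tested members in a compartment the counts by compartment are descriptions. Rab3a, the main Rab of synaptic vesicles, fell from 628 and 605 CPM in control mice to 508 and 469 CPM in PND mice, a log2 fold change of −0.34 ± 0.06 (SE) with an adjusted p-value of 0.0131 in edgeR. Rab3d fell by 0.43 and Rab26, another Rab of secretory vesicles, by 0.54 on the log2 scale. Rab26 was at 56.3 and 54.3 CPM in control mice and 38.3 and 37.7 CPM in PND mice, and Rab3d at 23.8 and 21.1 CPM against 16.7 and 16.6 CPM. The call on Rab3d was lost whichever mouse was left out, with log2 fold changes from −0.52 to −0.35, and also with DESeq2, with library totals and without the filter on low counts. Rab3b, at 60.3 and 67.8 CPM in control mice and 54.8 and 46.7 CPM in PND mice, had an adjusted p-value of 0.0605 in edgeR and did not pass. It passed without control mouse 1 (log2 fold change −0.42) or PND mouse 1 (−0.47), and with DESeq2 (adjusted p-value of 0.0453). Rab3c did not pass either, at 411 and 406 CPM in control mice and 419 and 484 CPM in PND mice. Rab3a accounted for 83.2% and 82.4% of the summed RPKM of the Rab3 set in control mice and 80.8% and 78.6% in PND mice. In the opposite direction, Rab27b, a Rab of dense-core and secretory granules, was at 28.0 and 24.5 CPM in control mice and 39.3 and 38.9 CPM in PND mice, a log2 fold change of 0.58 ± 0.10 that was 0.037 and did not pass with a correction for GC content and length. With that correction the 3 lower members did not pass either, at −0.05 for Rab3a, −0.25 for Rab26 and −0.21 for Rab3d.

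The endoplasmic reticulum and the Golgi, with the most tested members of any compartment, had 6 higher (46.2%) and 3 lower (23.1%) among 13, and 1 of these, Rab6a, passed once the counts were corrected for GC content and length. Rab30, a Golgi Rab, had the largest change of all members that passed, from 23.3 and 22.6 CPM in control mice to 43.6 and 44.1 CPM in PND mice, a log2 fold change of 0.93 ± 0.08 (SE) with an adjusted p-value of 0.00428 in edgeR. Rab39b, an X-linked gene in which mutations cause intellectual disability with early parkinsonism, was at 20.6 and 17.3 CPM against 29.0 and 29.4 CPM (log2 fold change 0.62 ± 0.12). Its call was lost without control mouse 2 (log2 fold change 0.50) and with the correction for GC content and length (0.078), and 14.8% of its windows are shared with another gene. Rab18, which acts on lipid droplets and the endoplasmic reticulum, rose by a log2 fold change of 0.41 and did not pass without control mouse 2 (0.31) or without the filter (0.40). With the correction for GC content and length Rab18 stood at −0.047 and did not pass. The largest fold change of the family belonged to Rab39, with a log2 fold change of 1.18 ± 0.36, and it did not pass (adjusted p-value of 0.0547 in edgeR), though it did with library totals in place of TMM. Rab39 had few reads, at 0.755 and 0.766 CPM in control mice and 1.505 and 1.96 CPM in PND mice.

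Early endosomes had 7 tested members, with Rab5a and Rab21 higher and Rab5c lower. Rab21, which acts in the uptake of integrins, was at 56.7 and 57.8 CPM in control mice and 82.0 and 79.8 CPM in PND mice, a log2 fold change of 0.50. Recycling endosomes had 7 tested members, with Rab14 higher (log2 fold change 0.42) and Rab11b (−0.31) and Rab15 (−0.21) lower. Rab15 lay close to the threshold, with an adjusted p-value of 0.0493 in edgeR, and among the fits without 1 mouse its call held only without PND mouse 1. It was also lost with library totals, without the filter, with a stricter one and with the correction for GC content and length (0.032). Its log2 fold change was −0.19 without control mouse 1, −0.23 without control mouse 2 and −0.16 without PND mouse 2.

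Late endosomes and lysosomes had 8 tested members, of which 2 were higher and 1 was lower. Rab7, which leads late endosomes to lysosomes, was at 217 and 216 CPM in control mice and 249 and 252 CPM in PND mice, a log2 fold change of 0.21 ± 0.06 (SE). Leaving out any 1 mouse took its adjusted p-value above the threshold at a log2 fold change of 0.21, as did testing without the filter (0.20), and 10.2% of its windows are shared with other genes, a Rab7 pseudogene among them. Rab9b, of the pair that returns cargo from late endosomes to the Golgi, was at 22.7 and 19.97 CPM against 30.7 and 33.2 CPM (log2 fold change 0.58), and its call was lost without control mouse 2 (0.49). Rab9 passed without control mouse 1 (0.58). Rab24, which takes part in autophagy, had the largest fall of the family, from 5.92 and 6.40 CPM in control mice to 3.70 and 3.26 CPM in PND mice, a log2 fold change of −0.83 ± 0.21. The call was lost without control mouse 1 (−0.89), control mouse 2 (−0.77) or PND mouse 2 (−0.73), and with DESeq2 (adjusted p-value of 0.0734). Rab24 shares 44.1% of its 75 nt windows with Prelid1 on the other strand, and since the use of strand in the counting is not given in the sources used here, reads in the shared part cannot be told apart.

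The plasma membrane and the cilium had 8 tested members, of which 3 were higher and 1 was lower. Rab10 and Rab12, both substrates of the Parkinson's disease kinase LRRK2, had log2 fold changes of 0.42 and 0.34. With the correction for GC content and length Rab10 stood at 0.18 and did not pass, and Rab12 at 0.41 and passed. The call on Rab12 was lost without control mouse 1 or PND mouse 1, at a log2 fold change of 0.31 in each. Rab10 was at 128 and 115 CPM in control mice and 160 and 165 CPM in PND mice, and Rab12 at 67.5 and 70.6 CPM against 88.5 and 86.6 CPM. Rab34, which is needed to form cilia in many cells, fell from 32.4 and 35.3 CPM to 23.6 and 23.2 CPM, a log2 fold change of −0.53 ± 0.10 (SE) that was −0.23 and did not pass with the correction. Of the Rabs set apart from these compartments, Rab40c, a subunit of a ubiquitin ligase, had a log2 fold change of −0.41, from 51.0 and 47.1 CPM in control mice to 39.4 and 34.2 CPM in PND mice, and Rab40b and Rab42 did not pass. The call on Rab40c was lost without control mouse 1 (−0.36) or PND mouse 2 (−0.31), and without the filter (−0.43).

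The remaining members tested did not pass. They were Rab37 of exocytosis, Rab43 of the Golgi, Rab20, Rab22a and Rab31 of early endosomes, Rab35 of recycling endosomes, Rab29, Rab32, Rab36 and Rab38 of late endosomes and related organelles, and Rab13, Rab23 and Rab28 of the plasma membrane and the cilium. Their log2 fold changes lay between −0.23, for Rab13 and Rab35, and 0.20, for Rab23. Exons of 15 of the 59 members overlap an exon on the other strand, 11 of them members that passed, and among members that passed the exons of Rab18 and Rab26 overlap one on the same strand.

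**Figure D3:**
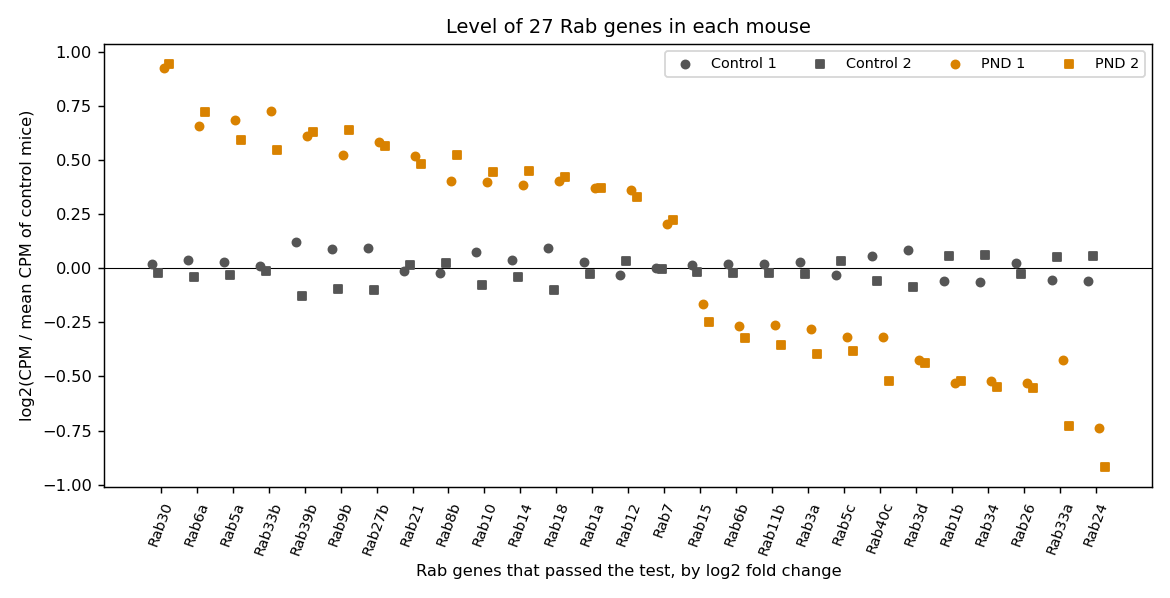
Level of the 27 Rab genes that passed, in each mouse, as the log2 of its CPM over the mean CPM of the control mice (y axis), with genes ordered by log2 fold change (x axis). Grey points are control mice and orange points PND mice (circles are mouse 1 and squares mouse 2), and in all 27 genes the pairs of points do not overlap.

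Too few reads for the test were counted on 5 members. Counts in the 2 control mice and then the 2 PND mice were 10, 10, 5 and 17 for Rab7b, 4, 1, 2 and 9 for Rab19, and 4, 3, 2 and 5 for Rab44. Rab25, an epithelial Rab, had 3, 2, 1 and 2 counts, and Rab17, also epithelial, had 0, 1, 0 and 0. The filter on low counts left these 5 genes out of the test, and in the fit without that filter 0 calls were gained.

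By mean RPKM over the 4 mice, the 5 highest were Rab3a at 248, Rab6b at 192, Rab2a at 108, Rab6a at 95.5 and Rab7 at 89.5 RPKM. These 5 held 50.2% and 49.4% of the family's summed RPKM in control mice and 49.9% and 49.2% in PND mice. Within them Rab3a went from 18.6% and 18.4% of the family in control mice to 15.5% and 14.7% in PND mice, and Rab6a from 4.95% and 4.83% to 7.80% and 8.40%. The leading transcripts Rab3a and Rab6b both passed as lower, and Rab6a and Rab7 passed as higher.

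The direction of change within the family went with the base composition of the transcripts. The 15 higher members had transcripts of 40.0% to 50.1% GC, with a median of 42.3%, and the 12 lower members had 49.98% to 56.8%, with a median of 55.5%. All but Rab12 of the higher members lay under 50%, and all but Rab11b of the lower members lay above it, Rab11b being just under. The 27 members that did not pass ranged from 41.2% to 59.1%, with a median of 49.5%. Over the 54 members the Spearman correlation of the log2 fold change with GC content was −0.84, and over 17120 tested genes with a known transcript it was −0.64, where all points share the same 4 libraries. In 9 of 11 pairs with both genes tested, the member with less GC had the higher log2 fold change, and the exceptions were Rab4 and Rab39.

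The order held in more than one part of the transcript. The coding sequence held a median of 45.8% GC in the higher members, 50.7% in those that did not pass and 53.97% in the lower ones. At the third position of codons the medians were 51.9%, 64.8% and 68.3% in the same order. The Spearman correlation with the log2 fold change over the 54 members was −0.65 for the GC content of the coding sequence. For the GC content of the 3′ untranslated region it was −0.76 over 53 members, and for the length of that region it was 0.41 over 54. These parts were read from a single transcript per gene, the one with the longest coding sequence. In the transcript used for Rab26 the 3′ untranslated region had a length of 0. The promoters did not show this order, with a median GC content of 65.3% in 12 higher members, 59.1% in 22 that did not pass and 63.3% in 11 lower members that had a RefSeq promoter.

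**Figure D4:**
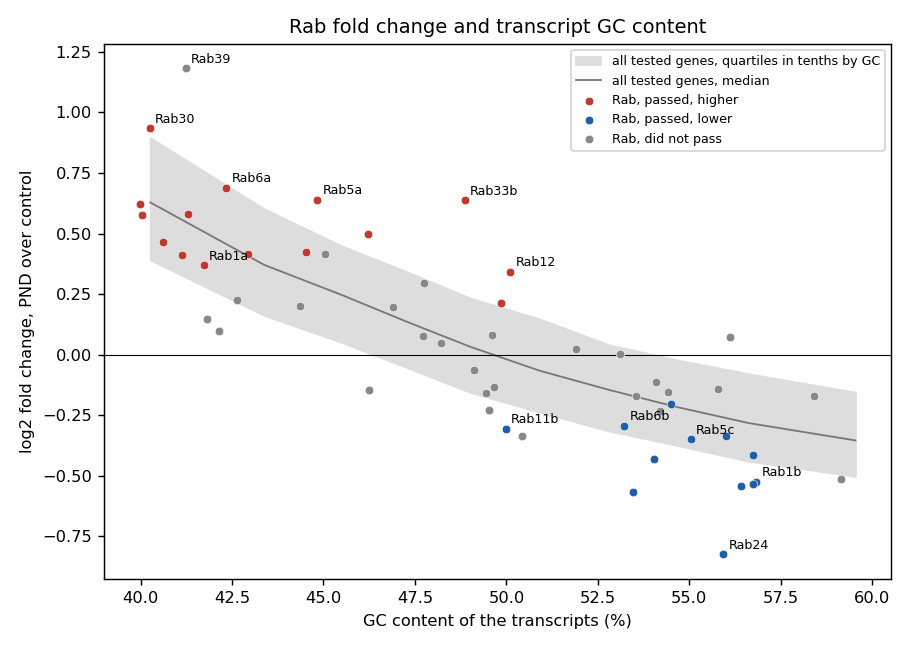
Log2 fold change of PND over control mice (y axis) against the GC content of the transcripts (x axis, percent) for the 54 tested Rab genes. The grey line and band are the median and quartiles of all tested genes in 10 bins by GC content, which fall from left to right as the Rab genes do.

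Most calls were lost when this relation was removed. When the trend of each library with GC content and length was fitted over all genes and removed, 3 members passed as higher and 0 as lower in edgeR, in a background of 1.41% and 0.964%, or 2.37% in either direction, of 17120 genes. At an unadjusted p-value under 0.05, 8 members were higher and 9 lower with the correction, and no other tool was run with it. The 3 members were Rab5a, with a corrected log2 fold change of 0.41 and an adjusted p-value of 0.0429 in edgeR, Rab6a, with 0.32 and 0.0428, and Rab12, with 0.41 and 0.0394. All 3 had passed without the correction, so 24 calls were lost and 0 were gained. Of those lost, Rab33b had a corrected log2 fold change of 0.64 with an adjusted p-value of 0.0501 in edgeR, and Rab7 of 0.27 with 0.0588. Rab21 went from 0.50 to 0.35 (adjusted p-value of 0.0554) and Rab30 from 0.93 to 0.41 (0.0588). The corrected values of Rab14 and Rab9b were 0.089 and 0.14, and those of Rab11b and Rab40c were −0.25 and −0.11. With the replicate number as a block in addition, 7 members were higher and 5 lower, where 9.36% and 6.58% of all genes were. The 10 calls kept in that fit were Rab5a, Rab6a, Rab12, Rab7, Rab21, Rab30, Rab33b, Rab1b, Rab11b and Rab26. Rab28 and Rab3c were gained there as lower.

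The paralogues differed in what the correction left. Rab6a and Rab6b stood at 0.32 and −0.10 on the corrected log2 scale, Rab5a and Rab5c at 0.41 and −0.09, and Rab33b and Rab33a at 0.64 and −0.38. Rab1a and Rab1b stood at −0.05 and −0.22, so the rise of Rab1a was not seen with the correction. In all, 13 members changed sign, and 4 of these had passed without the correction: Rab1a, Rab8b, Rab15 and Rab18. The corrected log2 fold change of Rab3a was −0.05 and that of Rab24 −0.54, neither passing. The Spearman correlation with GC content over the 54 members was −0.26 after the correction, against −0.04 over 17120 tested genes. The source of the relation with GC content was not tested.

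**Figure D5:**
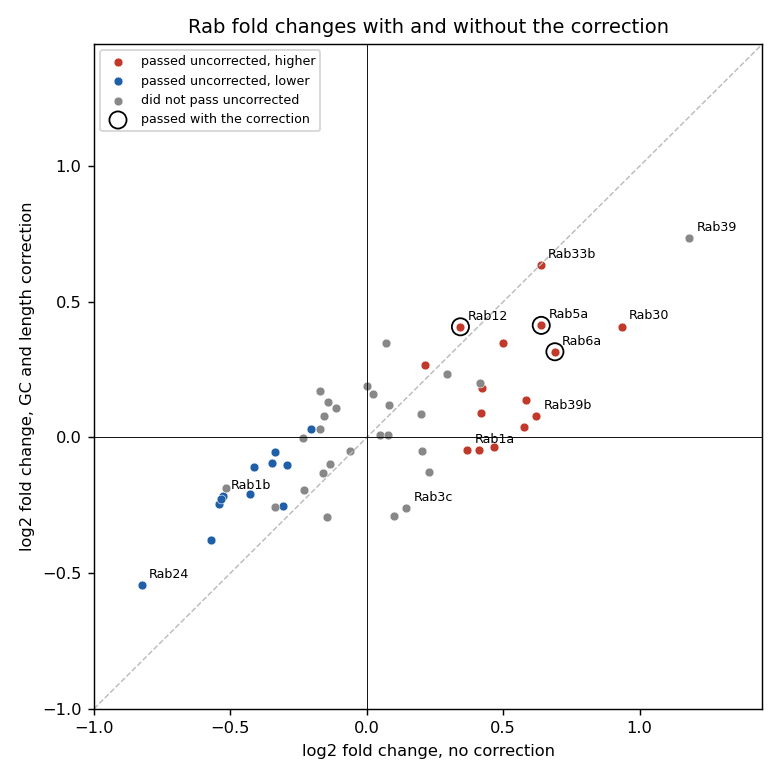
Log2 fold change of each of the 54 tested Rab genes without (x axis) and with (y axis) the correction for GC content and length, with the dashed line marking equal values. Rab5a, Rab6a and Rab12, ringed, passed with the correction, and most other coloured points lie nearer to 0 on the y axis than on the x axis.

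Promoters were searched for short motifs, since the study follows a transcription factor, NRF-1. RefSeq promoters of GRCm38.p6, from 250 bases before to 50 after the start, were found for 48 of 59 members and searched on both strands. The palindromic core of the NRF-1 motif was in none of the 48, against 1.07% of 27025 genes, which says only that these letters are not in these windows. The motif TGACGTCA, which CREB binds, was in the promoters of Rab5a and Rab25, against 2.03% of all genes. The motif TCACGTGA, which lysosomal transcription factors of the TFEB family bind, was in those of Rab5a, Rab21 and Rab24, against 1.12% of all genes. Rab5a, one of the 3 genes that passed with the correction, has both motifs in the last 100 bases before its start, and this stretch at chr17:53479134-53479233 on the plus strand is printed with the TCACGTGA and TGACGTCA matches in capitals.
Rab5a promoter: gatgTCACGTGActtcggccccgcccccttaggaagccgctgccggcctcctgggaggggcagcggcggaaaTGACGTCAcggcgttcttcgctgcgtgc

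The motifs do not overlap each other. A match is a description of the sequence, and the genes that hold these matches include members that rose, a member that fell and a member that was not tested.

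The proteins that load, switch and read Rabs were followed in 4 lists of 150 genes in all, and all 150 were tested. Of these, 28 were higher in PND mice, 32 were lower and 90 did not pass, with a median log2 fold change of −0.07. These are 18.7% higher and 21.3% lower, against 13.1% and 12.8% of all genes. Without control mouse 2 there were 16 higher and 21 lower, and without PND mouse 2 there were 18 higher. Without the GC correction the higher genes had a median of 42.2% GC and the lower ones of 55.9%, and with it 6 genes (4.0%) were higher and 2 (1.33%) lower, against 1.41% and 0.964% of all genes.

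Extraction and prenylation of Rabs were covered by 7 genes, of which 1 was higher (14.3%, against 13.1% of all genes) and 3 were lower (42.9%, against 12.8%). Gdi2, a GDP dissociation inhibitor, did not pass, at 166 and 172 CPM in control mice against 181 and 188 CPM in PND mice, and its log2 fold change of 0.12 was −0.19 with the GC correction. Chm, which presents new Rabs to the prenylating enzyme, rose by a log2 fold change of 0.77 (0.045 with the GC correction, not passing), while Rabggta, a subunit of that enzyme, fell by 0.54 and Rabac1, a Rab receptor of the Golgi, fell by 0.49 on the log2 scale. With the correction neither fall passed, at −0.24 for Rabggta and −0.14 for Rabac1.

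Exchange factors, 48 genes, had 7 higher (14.6%, near the 13.1% of all genes) and 13 lower (27.1%, against 12.8% of all genes). The largest rises were in Trappc2 (log2 fold change 0.61) and Trappc13 (0.49), subunits of the TRAPP complexes that act on Rab1 and Rab11, and in Dennd1b (0.52), which acts on Rab35 and whose call was lost without control mouse 1 (0.58), control mouse 2 (0.46) or PND mouse 2 (0.43), with DESeq2 (0.52) or without the filter (0.51). With the GC correction none of these 3 passed, with log2 fold changes of 0.042 in Trappc2, 0.013 in Trappc13 and 0.12 in Dennd1b. The largest falls were in Dennd3 (−0.71), an exchange factor of Rab12, and in the TRAPP subunits Trappc2l (−0.62) and Trappc9 (−0.55), and with the correction they stood at −0.44, −0.36 and −0.27 without passing. Dennd3 did not pass without control mouse 2 (−0.62), PND mouse 1 (−0.56) or the filter (−0.72). TRAPP subunits were found on both sides. GTPase-activating proteins, 41 genes, had 8 higher (19.5%) and 11 lower (26.8%), led by Tbc1d12 (0.83), Rabgap1l (0.81) and Evi5 (0.76) and by Tbc1d25 (−0.68), Sgsm1 (−0.44) and Sgsm3 (−0.42). Of these 6, Rabgap1l (0.40) and Evi5 (0.48) passed with the correction, while Tbc1d12 (0.70), Tbc1d25 (−0.39), Sgsm1 (−0.13) and Sgsm3 (−0.12) did not. Sgsm1 did not pass without control mouse 2 (−0.37), PND mouse 2 (−0.33) or the filter (−0.45).

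Effectors, 54 genes, had 12 higher (22.2%, against 13.1% of all genes) and 5 lower (9.26%, against 12.8%). Eea1, the tether that Rab5 recruits to early endosomes, was at 37.3 and 33.4 CPM in control mice and 63.0 and 74.2 CPM in PND mice, a log2 fold change of 0.96 ± 0.11 (SE) with an adjusted p-value of 0.0045 in edgeR. Bicd1, the dynein adaptor that binds Rab6, had a log2 fold change of 0.95 and did not pass with the GC correction (0.39). Sytl4, an effector of Rab27 on secretory granules, had a log2 fold change of 1.11 from a level of 1.10 and 1.04 CPM to 2.45 and 2.19 CPM. The call on Sytl4 was lost whichever mouse was left out, with log2 fold changes from 1.01 to 1.19, without the filter (1.10) and with the GC correction (0.98), and DESeq2 gave it no adjusted p-value. Rab11fip5 (−0.58), Plekhm2 (−0.45) and Rab11fip3 (−0.35) had the largest falls, and with the correction they stood at −0.24, −0.095 and −0.038 without passing. With the GC correction the higher genes of the lists were Eea1 and Rabep1, both partners of Rab5, Acap2, Rufy3, Evi5 and Rabgap1l, and the lower ones were Exoc6b and Dennd1a. Eea1 stood at 0.70 on the corrected log2 scale.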

How the data were processed

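The authors extracted hippocampal RNA, enriched poly(A) RNA with oligo(dT) beads, sequenced paired-end reads, mapped them to mm10 and deposited raw read counts per gene for each animal. The submitters' processing notes list HISAT2 2.1.0, TopHat2, Bowtie2 2.2.3 and HTSeq 0.6.0. The use of strand is not given in the sources used here. Columns of the authors' own comparison (mean level, fold change and p-values) were not used. Library totals ran from 15763432 to 18573386 counts. Replicates of a group differed by more than sampling noise, at a chi-square per degree of freedom of 13.4 for control and 8.45 for PND mice. The 2 samples of a group are separate mice, and the results cover these 4 animals only. The p-values set the difference between groups against the spread within groups, and the test estimates that spread partly by sharing it over genes.

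The counts were fitted in R 4.3.3 with edgeR 4.0.16 (filterByExpr with a minimum count of 10, TMM, glmQLFit without its legacy form and glmQLFTest) and adjusted by Benjamini-Hochberg over the 17144 genes tested, without covariates. Each standard error is the log2 fold change divided by the root of F. CPM and RPKM were computed from the counts with the TMM-scaled totals and, for RPKM, the exon length of the gene. GC contents, lengths and shared 75 nt windows came from GENCODE release M21, which holds all 59 members, 53 of them at the coordinates of the deposited table. Each library's trend with GC content and length was fitted with mgcv 1.9.3 (basis size 8) and entered as an offset in the corrected fit. DESeq2 1.42.0, other scalings and filters, the replicate number as a block and leaving out each mouse were the alternatives. The procedure was tested on simulated data.

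Named with a fold change was each member that passed. Values in every mouse were given for the 10 largest changes among these, for the paralogue sets Rab1 to Rab9, Rab11 and Rab27, and for the 5 highest levels. Of the regulators, up to 3 that rose and 3 that fell in each list were named, with Gdi2, and 1 gene is not reported here. The members and lists were chosen with earlier results of these data known.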

Additional observations from a re-analysis of the deposited data

How the results depend on the processing

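The 5 members not tested had at most 17 counts in any mouse and were left out by the filter on low counts. Without that filter all 59 members were tested, and 0 calls were gained. Removing the trends with GC content and length left 3 higher and 0 lower members (0 and 0 DEGs, median log2 fold change 0.0089) and 6 higher and 2 lower regulators, and reversed Rab11a (−0.13), Rab15 (0.032), Rab18 (−0.047), Rab1a (−0.046), Rab2a (−0.049), Rab3c (−0.26), Rab4a (0.031), Rab4b (0.17), Rab8b (−0.035) and Gdi2 (−0.19). With library totals in place of TMM there were 8 higher DEGs and a family median of 0.082, as the median of all genes went from 0.01 to 0.06. Lower DEGs numbered 2 with median-ratio size factors and 0 with DESeq2, where 1 member reached the fold at an unadjusted p-value under 0.05. Without the filter on low counts 17 regulators were higher. Leaving out 1 mouse gave 11 to 14 higher and 6 to 12 lower members, 4 to 7 higher and 0 to 2 lower DEGs, a median from −0.047 to 0.066, and 16 to 24 higher and 21 to 29 lower regulators. Of the 27 members that passed, 16 passed in all 4 of these fits, and Rab4b lay between −0.39 and 0.062, the latter without control mouse 1. Under the other scalings, DESeq2 and the other filters, the counts of higher and lower members stayed within 1.5 times and no named member changed sign, but calls ended for Rab15 and Rab3d with library totals, Rab24 and Rab3d with DESeq2, Rab15 with the stricter filter, and Rab15, Rab18, Rab33a, Rab3d, Rab40c and Rab7 without a filter. Rab39 was gained with library totals and Rab3b with DESeq2. The cause of these changes was not tested.

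The labels give both groups the replicate numbers 1 and 2 without saying that equal numbers share a litter, batch or day, and the differences between replicates 1 and 2 correlated at 0.22 between the groups over 17144 genes. With the replicate number as a block there were 17 higher and 13 lower members, while all genes went to 15.5% higher and 15.3% lower, Rab2a, Rab35 and Rab9 being gained and 0 lost. The replicate block together with the GC and length correction gave 7 higher and 5 lower members (1 and 0 DEGs, median 0.0038) and 15 higher and 15 lower regulators, where 9.36% of all genes were higher and 6.58% lower. Of the 27 members that passed, 10 were kept and 17 lost, and Rab28 and Rab3c were gained as lower. Genes that reversed were Rab11a at −0.13, Rab15 at 0.032, Rab18 at −0.046, Rab1a at −0.046, Rab2a at −0.050, Rab3c at −0.26, Rab4a at 0.030, Rab4b at 0.17, Rab8b at −0.035 and Gdi2 at −0.19.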
